A study of Triticum aestivum with 20 samples.

Results

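An activated island is a stretch of wheat leaf chromatin with active marks or open chromatin that has repressed or mixed chromatin directly on both sides. The islands were chosen from the leaf chromatin states alone. Neighbouring segments of the authors' 9 states were merged into 3 classes, activated (states E1, E2, E6 and E7), repressed or mixed (E3, E4, E5 and E8) and unmodified (E9). An activated run was kept where a repressed or mixed run touched each end with no unmodified bin between them. Of 245326 activated runs in leaf, 1389 were islands (0.566%). A further 18155 runs touched repressed or mixed chromatin at 1 end and are called one-sided runs, and 225782 touched it at neither end and are called isolated runs. Number, length, states and surround in leaf are therefore descriptions of the choice. The choice did not use the vernalized leaf states, although both sets of states come from 1 study and may share a model.

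The series holds ChIP-seq of bread wheat (Triticum aestivum), winter cultivar AK58, in vernalized leaf and in leaf, with 2 replicates of each of 4 histone marks (H3K4me3, H3K36me3, H3K27ac and H3K27me3) and 2 inputs per condition, 20 libraries in all. Vernalized leaf came from plants kept for a month in a cold chamber and then for a day in the greenhouse. Leaf came from plants grown for 2 weeks after germination without cold. Plant age, cold and the return to warmth differ between the conditions together and cannot be told apart. The labels of both conditions name no mutant and no transgene. Used here are the authors' ChromHMM states of 200 bp bins, called from these marks together with chromatin accessibility, 1 segmentation per condition. No value per library exists at this level, so no spread between replicates and no test between the conditions can be given. Intervals on shares of islands are 95% Wilson binomial intervals and cover counting error over islands only.

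H3K27me3 is laid down by Polycomb repressive complex 2 and keeps genes silent through cell divisions. In cereals and in Arabidopsis it is known for its part in the memory of winter cold at flowering genes. H3K4me3 and H3K27ac mark active promoters, H3K36me3 marks the bodies of transcribed genes, and open chromatin marks regulatory sequence. In the study's display of the states, E1 carries all active signals, E2 mainly H3K36me3, E6 strong accessibility with some H3K27ac, and E7 accessibility alone. E5 carries H3K27me3 alone, and the mixed states E3, E4 and E8 carry H3K27me3 together with active marks or accessibility. Mixed states in bulk tissue can hold both kinds of mark on 1 chromosome or in different cells, which these files do not separate. The order of the states was read from that display and could not be checked from the files, so equal state numbers in vernalized leaf and in leaf need not have the same definition. No gene annotation or sequence of the build of the files (IWGSC RefSeq v1.0) was used here, so the regions below are given by position and state, without genes.

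The islands were short. Their median length was 400 bp, against 600 bp for one-sided and 600 bp for isolated runs, and 579 of them (41.7%) were a single bin of 200 bp. Runs of 2000 bp or more made up 10.2% of the islands and 23.7% of the isolated runs. Together the islands covered 1.15 Mb. State E2 took 57.1% of their bases, E1 19.2%, E7 14.1% and E6 9.60%, whereas in isolated runs E2 took 74.0% and E1 10.4%. A single state made up 992 islands, among them 709 of E2 only, 164 of E7 only, 112 of E1 only and 7 of E6 only. All 4 activated states met in 38 islands, whose median length was 3200 bp.

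The chromatin around the islands was mostly plain H3K27me3 by length but not at the contact itself. The surround consisted of 2687 different runs over 13.2 Mb, 1.99% of all repressed or mixed bases in leaf. State E5 took 83.2% of these bases, yet it stood at only 40.5% of the 2778 island ends, and the other ends touched E4 (30.7%), E3 (14.4%) or E8 (14.4%). E5 touched both ends of 272 islands, E5 and a mixed state touched 580, and mixed states touched both ends of 537. Surround runs had a median length of 1600 bp, against 3400 bp for the other repressed or mixed runs, and the longest reached 245000 bp. The 2 runs around an island were often unequal, with a median of 600 bp for the shorter and 3400 bp for the longer run. In 501 islands (36.1%) the shorter run was a single bin, and in 127 islands (9.14%) both runs were 5000 bp or longer. When unmodified gaps of at most 400 bp were allowed between the run and its surround, the number of islands was 1903 in place of 1389.

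Islands were mostly alone in their stretch of modified chromatin. The 1389 islands lay in 1298 stretches without an unmodified bin, and 1212 of these stretches held 1 island, 81 held 2 and 5 held 3. The longest stretch with 3 islands was 4B:668851001-668882200, of 31200 bp, which was 93.6% repressed or mixed in leaf. None of its islands kept an activated bin in vernalized leaf, where 74.4% of the stretch was repressed or mixed and 23.1% unmodified.

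The first question was what became of the islands in vernalized leaf. Of 1389 islands, 572 had at least 1 activated bin there (41.2%, interval 38.6 to 43.8%), against a background of 53.1% over all activated runs of leaf. At least 50% of the bases stayed activated in 36.5% of the islands, against a background of 47.3%. A change to repressed or mixed chromatin was counted where no activated bin was left and at least 50% of the bases were in that class. All bases were in it in 297 islands (21.4%). The change as counted was seen in 390 islands (28.1%, interval 25.8 to 30.5%), against a background of 2.57% over all activated runs. This share was 16% in one-sided runs and 1.33% in isolated runs, and among runs of 200 bp alone it was 28.5% in islands, 19.1% in one-sided runs and 1.22% in isolated runs. The remaining 427 islands (30.7%) had no activated bin and were mostly unmodified, against 44.9% of the isolated runs. Of the island bases, 47.4% were activated in vernalized leaf, 29.3% unmodified and 23.3% repressed or mixed. The last share was mostly mixed chromatin, which took 15.3% of the island bases, against 7.98% for E5.

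Few islands were still in direct contact with repressed or mixed chromatin on both sides in vernalized leaf. By the same rule, 22 leaf islands (1.58%, interval 1.05 to 2.39%) overlapped an island of vernalized leaf, against a background of 0.0709% over all activated runs. Another 172 kept activated bases that touched repressed or mixed chromatin on 1 side, and 378 kept activated bases that touched none. An activated bin in the island together with some repressed or mixed bases in both of its surround runs was more frequent than such contact, in 158 islands (11.4%, interval 9.81 to 13.2%). The 572 islands with an activated bin had a median length of 800 bp, and the activated runs they met in vernalized leaf had a median length of 1400 bp. These runs were longer than the island in 381 cases, equal in 36 and shorter in 155. Repressed or mixed chromatin lay within 1000 bp on both sides of such a run in 99 of the 572 (17.3%). The islands without an activated bin had a median length of 200 bp.

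**Figure D1:**
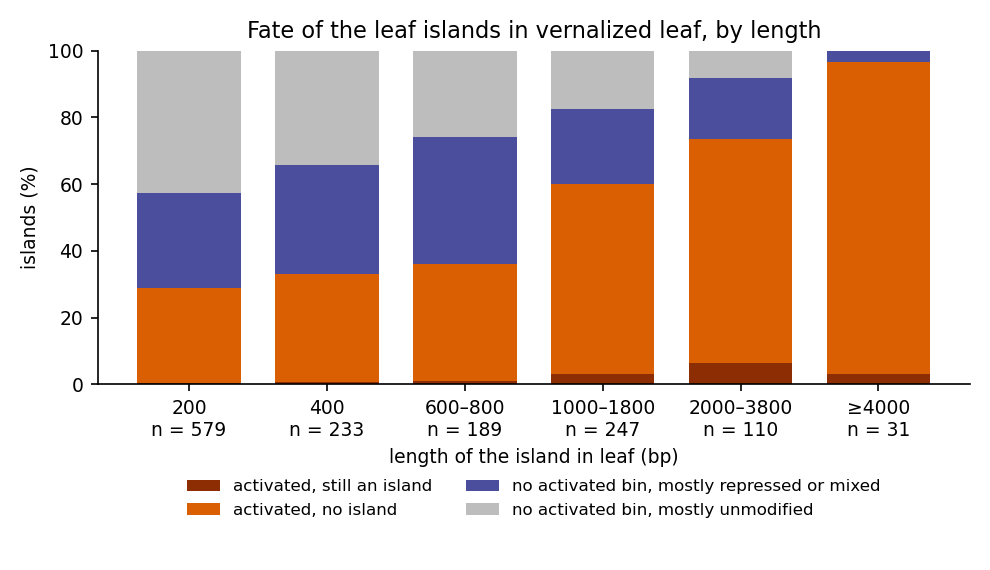
Share of the 1389 leaf islands by their fate in vernalized leaf (y axis, percent of islands), for 6 classes of island length (x axis, bp, with the number of islands). Islands with an activated bin, the 2 lower parts of each bar together, made up 29.0% of the 200 bp islands and 96.8% of those of 4000 bp or more, while the share that became mostly repressed or mixed was highest, at 38.1%, in islands of 600 to 800 bp.

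Length went along with the fate of an island. A longer run has more bins in which an activated bin can be found. A rise of this share with length is therefore partly built into the measure, for islands and isolated runs alike. How much of the rise comes from this was not tested, and shares of activated bases by length are not given here. An activated bin was found in vernalized leaf in 29.0% of the 579 islands of 200 bp, 33.0% of those of 400 bp, 36% of those of 600 to 800 bp, 59.9% of those of 1000 to 1800 bp, 73.6% of those of 2000 to 3800 bp and 96.8% of the 31 of 4000 bp or more. Isolated runs of the same classes gave 19.9%, 30.2%, 51.1%, 80.7%, 96.1% and 99.8%. The shortest islands were therefore found activated more often than isolated runs of their length, and islands of 600 bp or more less often.

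This comparison was made over the 7 homoeologous chromosome groups, with the other runs weighted on each chromosome to the islands' mix of length class and leading state, and tested by flipping the signs of the 7 group differences in all possible ways (exact sign-flip permutation, two-sided). Chromosomes are units within 1 segmentation per condition, so the test says nothing about the spread between plants. Over all lengths the share of islands with an activated bin was lower than that of isolated runs, with a difference of -4.78 ± 2.00 percentage points (mean ± SD over 7 groups, lower in 7 of 7 groups and on 16 of 21 chromosomes, exact p = 0.0156, which is the smallest this design allows, adjusted p = 0.0469 over 3 comparisons). The size of this difference depended on the setting. It was -19.8 points for runs of at least 600 bp, -14.1 points with E5 alone counted as surround and -13.8 points with surround runs of at least 1000 bp. It was -12.6 points without weighting and -7.49 points with gaps of at most 400 bp bridged. Except without weighting, these settings also changed the isolated and one-sided runs compared. With E5 alone as surround, runs touching mixed states but not E5 counted as isolated, and those with E5 at 1 end as one-sided. The call was lost when E6 and E7 were counted as unmodified (-5.60 points, lower in 6 of 7 groups, adjusted exact p = 0.141). With any 1 group left out the difference was between -5.26 and -4.29 points and lower in 6 of 6 groups, a number of groups at which no lone difference can pass the adjustment. Against one-sided runs the difference was -0.19 ± 1.84 points, lower in 3 of 7 groups (exact p = 0.828), but it became a call with islands of at least 600 bp (-8.92 points, adjusted exact p = 0.0234), with E5 at both ends (-5.22 points, adjusted exact p = 0.0312), with surround runs of at least 1000 bp (-5.97 points, adjusted exact p = 0.0234) and without weighting (-4.06 points, adjusted exact p = 0.0156). With at least 50% of the bases activated in place of 1 bin, the difference from one-sided runs was 1.52 points, lower in 1 of 7 groups (adjusted exact p = 0.0703). The mean over all lengths joined opposite differences. Among runs of 200 bp the islands were 8.26 ± 3.63 points higher than isolated runs, higher in 7 of 7 groups, and among runs of 1000 bp or more they were lower, by a difference of -21.9 ± 7.51 points, in 7 of 7 groups. Against one-sided runs the islands of 200 bp were 7.93 ± 4.02 points higher and those of 1000 bp or more lower, by a difference of -10.4 ± 6.94 points. The split by length was chosen after the shares by length were seen, so its values are a description, with no test.

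**Figure D2:**
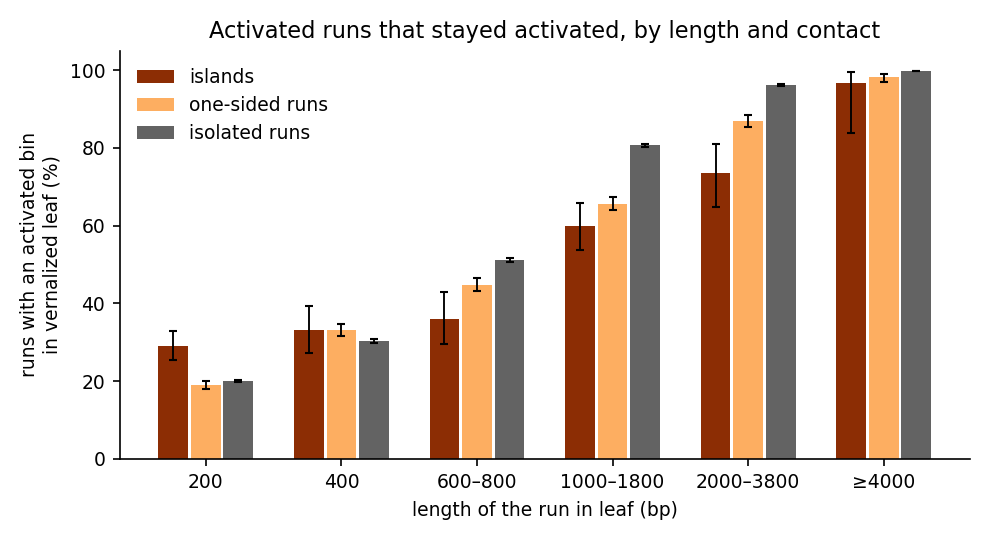
Share of leaf runs with at least 1 activated bin in vernalized leaf (y axis, percent) by run length (x axis, bp) for islands, one-sided runs and isolated runs. Bars are shares and error bars are 95% Wilson intervals over runs. Islands stand above isolated runs at 200 bp (29.0% and 19.9%) and below them from 600 bp on.

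The state at the contact also went along with the fate. Islands with E5 at both ends had an activated bin in vernalized leaf in 25% of 272 cases (interval 20.2 to 30.5%), those with E5 at 1 end and a mixed state at the other in 45.3% of 580, and those with mixed states at both ends in 44.9% of 537 (interval 40.7 to 49.1%). The median length was 400 bp in each of these groups. Among islands of 200 bp, 11.6% of 129 with E5 at both ends (interval 7.17 to 18.3%) and 32.9% of 234 with mixed states at both ends (interval 27.2 to 39.2%) had an activated bin, and the isolated runs of this length, at 19.9%, lay between them. Among islands of 1000 bp or more the shares were 57.4% of 54 and 65.3% of 170, with intervals that overlap. Islands of 200 bp between mixed states also became repressed or mixed more often, in 38.0% of cases (interval 32.1 to 44.4%), against 19.4% (interval 13.5 to 27%) between E5. These shares were not tested over chromosomes.

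Islands led by different activated states had different fates, and their lengths differed with them. An activated bin was found in 75.9% of the 54 islands in which E6 took most bases (median 2000 bp), 53.6% of the 250 led by E1 (median 400 bp), 37.2% of the 888 led by E2 (median 400 bp) and 34.0% of the 197 led by E7 (median 200 bp). At equal length the order of E1 and E2 was the same in the shortest class, although the intervals overlap. The shares were 37.8% of 82 islands of 200 bp led by E1 and 27.9% of 369 led by E2. Other runs of 200 bp had this order too, with 25.7% and 18.6% in isolated runs and 27.2% and 19.1% in one-sided runs. At 400 bp the islands gave 55.6% of 45 led by E1 and 26.6% of 158 led by E2. E7 was not last at each length, with 70% of 30 islands of 1000 to 1800 bp, against 66.2% of 65 led by E1. Base by base, 61.4% of E1 bases and 62.0% of E6 bases stayed activated, against 41.2% of E2 and 43.6% of E7 bases. E6 bases were again labelled E6 in 42.9% of cases, and E7 bases were labelled E6 in 22.3%. E1 bases changed to a mixed state in 22.2% of cases and became unmodified in 12.4%. E2 and E7 bases became unmodified in 34.0% and 37.5% of cases.

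The surround was also followed into vernalized leaf. Of the surround bases, 66.5% were still repressed or mixed, 28.5% were unmodified and 5.04% were activated, against 71.2%, 27.5% and 1.33% of the bases in other repressed or mixed runs. Surround runs of each length class held more activated bases in vernalized leaf than other runs of that class, 27.3% against 9.73% in runs of 200 bp and 2.80% against 0.80% in runs of 4000 bp or more. By the choice each surround run touches an activated run in leaf, while most of the 96540 other runs touch none. Surround runs were not compared with the runs that touch one-sided runs. Per run and at equal length, the retained share was 0.13 ± 2.22 percentage points higher in surround runs (mean ± SD over 7 groups, higher in 4 of 7, exact p = 0.875), and pooled over all chromosomes it was -0.10 points. This mean joined opposite differences, since 20.5% of the bases of surround runs of 200 bp were retained, against 11.9% in other runs of that length, while in runs of 1000 to 1800 bp it was 26.7% against 29.6% and in runs of 4000 bp or more 73.2% against 76.8%. With E5 alone counted as surround, all runs were cut at mixed bins, and E5 runs around islands were compared with other E5 runs. The retained share was then 26.5% against 43.4%, with a difference of -16.5 points (lower in 7 of 7 groups, adjusted exact p = 0.0234). As the runs differ, this value does not compare directly with the others given here. Over all islands without weighting the difference was -9.23 points (adjusted exact p = 0.0156). All repressed or mixed bases were lost from 1125 surround runs (41.9%), against 29.5% of the other runs, which were longer. By leaf state, 35.3% of the E3 bases of the surround were activated in vernalized leaf, 20.3% of E8, 12.6% of E4 and 2.26% of E5. Of the E5 bases, 64.1% stayed E5 and 30.3% became unmodified.

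The chromatin just outside the islands was also compared by distance. In the first bin outside an island, which is repressed or mixed in leaf by the choice of the islands, 26.1% of 2778 positions were activated in vernalized leaf, 29.8% repressed or mixed and 44.1% unmodified. In the first bin outside one-sided runs, on the side that touched repressed or mixed chromatin, 25.7% of 18155 positions were activated in vernalized leaf, close to the share at islands. At 900 bp from the edge 14.6% were activated in vernalized leaf, against 11.6% in leaf, and at 3900 bp 9.43% against 8.78%. The repressed or mixed share in vernalized leaf stayed between 28% and 30.7% of positions out to 2700 bp, while in leaf it was 79.8% at 300 bp and 45.7% at 2700 bp.

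**Figure D3:**
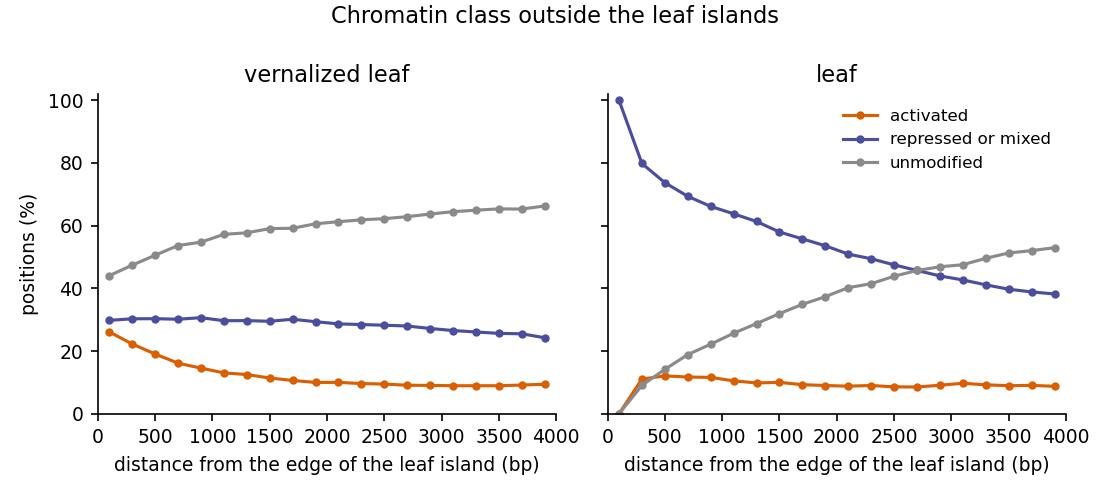
Share of positions in each chromatin class (y axis, percent of 2778 positions, both ends of 1389 leaf islands) by distance from the edge of the leaf island (x axis, bp), in vernalized leaf and in leaf. The first point in leaf is 100% repressed or mixed by the choice of islands. In vernalized leaf the activated share was 26.1% at 100 bp and 9.43% at 3900 bp.

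Island and surround did not always change together. Repressed or mixed bases were left in both surround runs of 534 islands, in 1 of them for another 534 and in neither for 321. An activated bin was found in 29.6% of the first (interval 25.9 to 33.6%), 45.3% of the second and 53.6% of the third (interval 48.1 to 59.0%). The shorter surround run had a median of 2000 bp, 400 bp and 200 bp in these groups. Sorted by the shorter surround run alone, the share with an activated bin went the other way, 36.1% for 200 bp, 39.8% for 400 to 800 bp, 44.0% for 1000 to 4800 bp and 55.9% for 5000 bp or more, and the median island length was 200 bp, 400 bp, 600 bp and 1400 bp. Of the 127 islands with at least 5000 bp on both sides, 8 were still islands (6.30%, interval 3.23 to 11.9%), and of the 501 with a single bin on the shorter side none was (0%, interval up to 0.761%). In 94 cases (6.77%) no modified bin was left in the island or in its surround.

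The islands singled out by their length show these fates. The longest island was 5D:449271601-449284800, of 13200 bp with 11800 bp of E2, between runs of 2000 bp and 32400 bp. In vernalized leaf 92.4% of it was activated, and 30% of the left and 85.8% of the right surround run was still repressed or mixed. The longest island that became wholly repressed or mixed was 4B:3766601-3773600, of 7000 bp with 6600 bp of E2 and 400 bp of E7. It lay next to the longest surround run, of 245000 bp, of which 99.2% was retained, and no bin of the former island carried E5 alone in vernalized leaf, so that all of it was mixed. The longest island that was wholly activated and still an island was 3B:775259801-775263400, of 3600 bp, between runs of 3800 bp and 5600 bp that kept 52.6% and 17.9% of their bases.

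Other islands lost their surround, lost all marks or kept most of both. The longest island that stayed wholly activated while its surround vanished was 4D:505434201-505439000, of 4800 bp with 2400 bp of E1, 1400 bp of E6 and 1000 bp of E7. Its left surround run of 600 bp was wholly activated in vernalized leaf and its right run of 600 bp was 66.7% activated. The longest island that became wholly unmodified was 7B:550586001-550588600, of 2600 bp, whose left surround run was unmodified and whose right run kept 20%. The island set deepest in repressed or mixed chromatin was 2B:35124601-35125400, of 800 bp between runs of 102400 bp and 50600 bp. It stayed activated over 75% of its bases, and its surround runs kept 98.2% and 81.0%.

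The same rule was then applied to vernalized leaf. It gave 380 islands of 285107 activated runs (0.133%), against 1389 of 245326 in leaf (0.566%), a ratio of 0.274. With E5 alone allowed at both ends the ratio was 0.0257, from 7 islands in vernalized leaf and 272 in leaf, and with islands of at least 600 bp it was 0.399. Contacts between activated and repressed or mixed runs numbered 10187 in vernalized leaf and 20933 in leaf, or 1.79% and 4.27% of the ends of activated runs. Repressed or mixed chromatin covered 528 Mb in vernalized leaf and 665 Mb in leaf. The mixed states within it, which stood at most island ends, covered 33.5 Mb and 67.9 Mb. The islands of vernalized leaf were longer, with a median of 800 bp against 400 bp, and 26.3% of them were a single bin, against 41.7%. E6 took 24% of their bases, against 9.60% in leaf islands, and E7 took 2.85%, against 14.1%. The share of E6 was also higher in vernalized leaf in isolated runs, 6.24% against 3.21%, and in one-sided runs, 14.1% against 5.73%. For E7 it was higher in isolated runs, 16.5% against 12.4%, and lower in one-sided runs, 12.6% against 17.3%. Mixed states stood at nearly all their ends, E3 at 50%, E8 at 22.5% and E4 at 19.9%, while E5 stood at 7.63%, against 40.5% of the island ends in leaf.

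Islands of vernalized leaf mostly lay where leaf was already repressed or mixed. Of the 380, 203 were wholly repressed or mixed in leaf (53.4%, interval 48.4 to 58.4%), against a background of 3.74% over all activated runs of vernalized leaf. Another 100 were wholly activated in leaf (26.3%), against a background of 24.1%, and 9 were wholly unmodified. Of the bases in runs of vernalized leaf, 54.2% were repressed or mixed in leaf in islands, 21.9% in one-sided runs and 1.79% in isolated runs. Their surround was 89.4% repressed or mixed in leaf. The longest of the 203 was 3B:802754201-802765200, of 11000 bp with 7800 bp of E2 and 3200 bp of E1 in vernalized leaf, and 87.3% of it carried E5 in leaf. Looked up in leaf, islands of vernalized leaf had an activated bin in 43.9% of cases, against a background of 47.4%, and at equal length and leading state this differed by -18.9 ± 7.64 points from isolated runs of vernalized leaf (lower in 7 of 7 groups, exact p = 0.0156, adjusted p = 0.0234 over 3 comparisons).

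Islands lay towards the chromosome ends. Each chromosome was cut into 20 equal blocks, and per 100 Mb the first block held 10.5 islands in vernalized leaf and 33.8 in leaf, the last 11.9 and 31.3. The fewest leaf islands were in block 7, with 0.711 per 100 Mb. Repressed or mixed chromatin is concentrated at the ends too, and per Mb of it the order was the opposite, with 1.46 leaf islands in block 20, the lowest value, and 8.65 in block 8, the highest, which held 11 islands. An activated bin was found in vernalized leaf in 35.8% of the 193 islands in the inner 10 blocks, 37.8% of the 402 in the 6 blocks around them and 44.2% of the 794 in the 4 end blocks. Over all activated runs the shares were 54.3%, 53.1% and 51.3%. The surround kept 44.4%, 55.4% and 70.4% of its bases in these zones. Over all zones this share went with run length, from 20.5% in surround runs of 200 bp to 73.2% in those of 4000 bp or more. Run lengths and the share kept by other repressed or mixed runs were not compared between zones. The end blocks also held the surround run of 245000 bp on 4B, of which 99.2% was retained. Of the 22 islands that were still islands, 20 lay in the 4 end blocks.

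**Figure D4:**
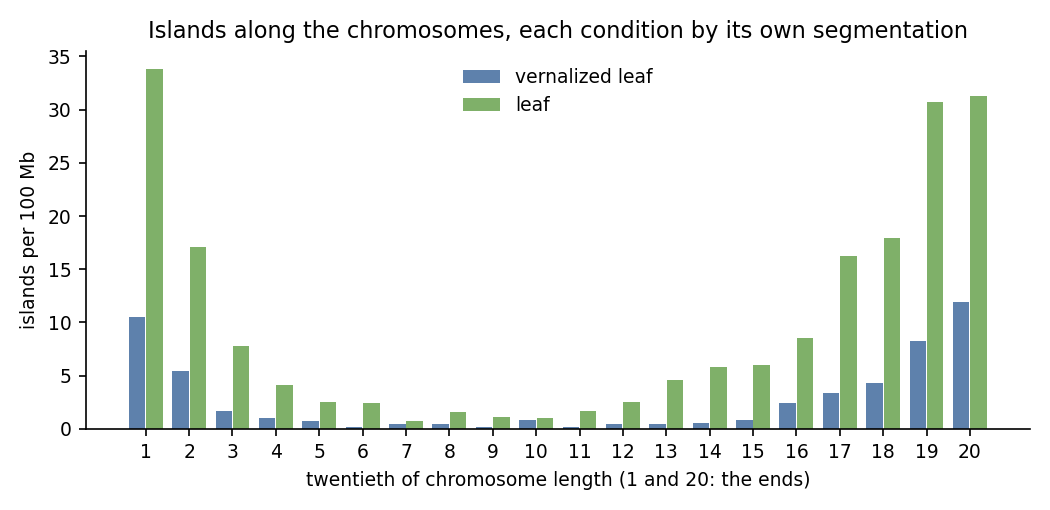
Number of islands per 100 Mb (y axis) in each of 20 equal blocks of chromosome length (x axis, blocks 1 and 20 at the ends), summed over 21 chromosomes, in vernalized leaf and in leaf. Leaf bars are highest in block 1, at 33.8, and lowest in block 7, at 0.711. Bars of vernalized leaf are lower than those of leaf in each block.

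No difference between sub-genomes passed the adjustment. Sub-genome A held 446 islands, B 489 and D 454, which came to 8.97 ± 1.42, 9.39 ± 1.43 and 11.4 ± 3.14 per 100 Mb (mean ± SD over 7 chromosomes each). Per Mb of repressed or mixed chromatin the values were 2.33 ± 0.72, 2.34 ± 0.86 and 2.21 ± 0.39. These densities were not tested. An activated bin was found in vernalized leaf in 41.3 ± 4.77% of islands in A, 40.3 ± 5.25% in B and 42.3 ± 7.71% in D. The surround kept 61.3 ± 8.34% of its bases in A, 67.8 ± 7.80% in B and 61.5 ± 11.3% in D. The share kept was lower in A than in B in 7 of 7 chromosome groups, with a difference of -6.48 ± 3.43 points (exact sign-flip permutation p = 0.0156, adjusted p = 0.141 over 9 comparisons). As the smallest exact p over 7 groups is 0.0156, a lone difference could not have passed the adjustment over 9. The difference rested in part on 1 surround run of 245000 bp on 4B, without which A was lower in 6 of 7 groups, with a difference of -3.89 ± 6.61 points (exact p = 0.141). Of the 9 comparisons, 1 had an unadjusted p under 0.05.

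**Figure D5:**
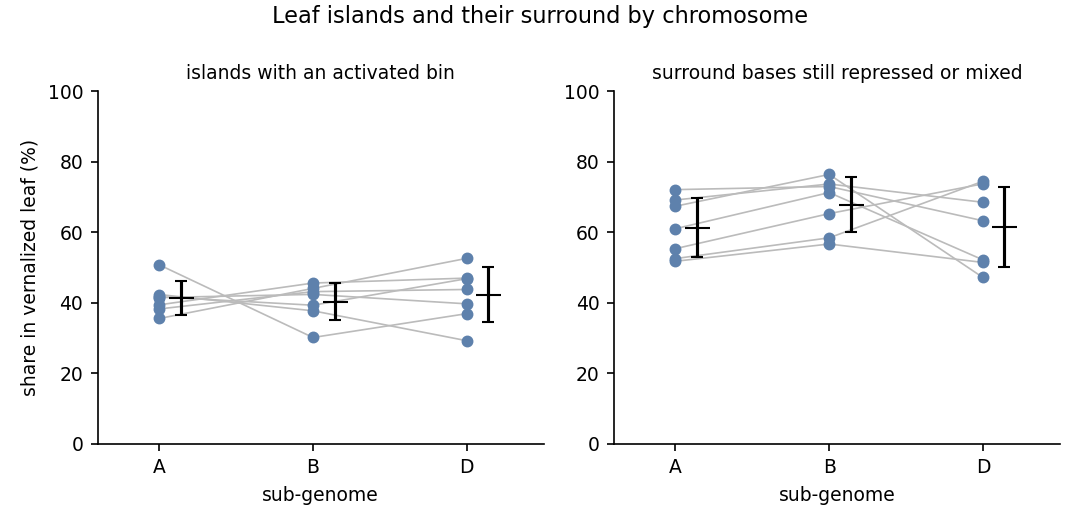
Share of islands with an activated bin in vernalized leaf and share of surround bases still repressed or mixed there (y axes, percent), for the 7 chromosomes of each sub-genome (x axis). Points are chromosomes, grey lines join chromosomes of 1 homoeologous group, and bars are means with SD over 7 chromosomes. The surround lies lower in A (mean 61.3%) than in B (67.8%) in 7 of 7 groups.

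Chromosome 7D held the most leaf islands, 103, and 4D the fewest, 32. Per Mb of repressed or mixed chromatin in leaf their order was the opposite, with 2.00 on 7D and 2.67 on 4D. The share with an activated bin in vernalized leaf was highest on 3D, at 52.6% of 78 islands, and lowest on 5D, at 29.2% of 65. The surround kept most of its bases on 4B, 76.3%, and least on 4D, 47.2%, but without the 1 run of 245000 bp the value of 4B was 58.2%. The ratio of island number in vernalized leaf to that in leaf was below 1 on each of the 21 chromosomes, from 0.106 on 6B, with 9 islands against 85, to 0.476 on 3B, with 40 against 84. Of the 22 islands that were still islands, 4 lay on 3B, and 8 chromosomes had none.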

How the data were processed

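The authors trimmed reads with fastp 0.21.0, mapped them with Bowtie2 2.3.5.1 to IWGSC RefSeq v1.0 (tool versions per the submitters' processing notes), filtered them with SAMtools, removed duplicates with Picard and gave the peaks of 4 marks and of chromatin accessibility to ChromHMM. The deposited values are state labels, 1 per segment, with no score, signal or count. The methods speak of a single trained model without saying whether both conditions entered it, and how replicates were combined is not given in the sources used here. All columns of states were mapped to a condition, with 0 left over. The files of states hold no read numbers, and the study's supplementary statistics of its sequencing data were not used here. The precision that depth gives was therefore not assessed. Fewer reads in a library can leave peaks, and with them states, uncalled.

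Segments were read into 200 bp bins, checked to tile the 21 chromosomes, and merged by class. Each island was looked up in the other condition. Shares per chromosome were compared over 7 homoeologous groups by flipping the signs of the group differences (exact two-sided permutation, 128 patterns) with Benjamini-Hochberg adjustment. Functions were tested on simulated segmentations. The members and lists were chosen with earlier results of these data known. Named regions are the longest island of each fate, the island with the longest shorter surround run, the stretch with most islands, and the chromosomes and blocks with the highest and lowest value. Alternatives changed the shortest island or surround run, the states allowed, the gap bridged, the chromosomes, the meaning of an activated bin kept, and the weighting. Tables of genes and accessible regions were not used here. Python 3.11.15, numpy 2.4.6, pandas 2.3.3, scipy 1.17.1 and matplotlib 3.10.9 were used.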

Additional observations from a re-analysis of the deposited data

How the results depend on the processing

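With islands of at least 600 bp only, there were 577 islands, 56.7% had an activated bin in vernalized leaf, 2.95% were still islands, the ratio of island number in vernalized leaf to leaf was 0.399, and the difference from one-sided runs was -8.92 percentage points (adjusted exact p = 0.0234). With E5 alone allowed at both ends the number was 272, the share with an activated bin 25%, the share still islands 0%, the ratio 0.0257 (7 islands in vernalized leaf), the surround retained 53.6%, the share turned repressed or mixed 21.7%, the difference from one-sided runs -5.22 points (adjusted exact p = 0.0312) and that of surround runs from other runs -16.5 points (adjusted exact p = 0.0234). In that setting mixed states were no surround, so one-sided runs, surround runs and other runs were defined by E5 alone. With surround runs of at least 1000 bp there were 536 islands, 46.8% with an activated bin, and a ratio of 0.194. The difference from one-sided runs was -5.97 points (adjusted exact p = 0.0234). With E6 and E7 counted as unmodified there were 912 islands, 31.6% had an activated bin, 0.439% were still islands, 30.6% turned repressed or mixed, and the difference from isolated runs was -5.60 points and no longer passed (adjusted exact p = 0.141). With unmodified gaps of at most 400 bp bridged the share with an activated bin was 45.1%, the share still islands 4.36% and the ratio 0.356.

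With an activated bin replaced by at least 50% of the bases the share of islands was 36.5%. The difference from one-sided runs was then 1.52 points, lower in 1 of 7 groups (adjusted exact p = 0.0703). From isolated runs it was -5.10 points (adjusted exact p = 0.0469). Without weighting, the difference from one-sided runs was -4.06 points and that of surround runs from other runs -9.23 points (adjusted exact p = 0.0156 for each). With vernalized leaf runs looked up in leaf they were -19.6 points (adjusted exact p = 0.0234) and -7.76 points (adjusted exact p = 0.0469). Chosen after the data were seen, runs of 200 bp only reversed the difference from isolated runs to 8.26 points and gave 7.93 points against one-sided runs, and runs of at least 1000 bp gave -10.4 points against one-sided runs, all as descriptions with no test. The causes of these changes were not tested, except that the settings change which runs are compared.

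The difference from isolated runs was -19.8 points with runs of at least 600 bp, -14.1 with E5 alone as surround and -13.8 with surround runs of at least 1000 bp. It was -12.6 without weighting and -7.49 with gaps bridged. Except without weighting, the isolated runs were also chosen anew in each of these settings.

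Leaving out each chromosome group in turn gave differences from isolated runs of -5.26 to -4.29 points, all below 0 in 6 of 6 groups, with an adjusted exact p of 0.0938, where 6 groups cannot give less than an unadjusted exact p of 0.0312. Without chromosome 1B no value changed its side of the threshold or left its interval. Of 95 alternative values, 55 stayed the same by these measures. The count includes values with 1 chromosome group left out, where 6 groups let no lone difference pass the adjustment. Such labels depend on the number of groups, so the count is no measure of stability. Islands of a single bin lie at the resolution of the segmentation. No paired analysis was possible because the replicate numbers belong to libraries, and the deposited states carry no value per library.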
